A study of Rattus norvegicus with 12 samples.

Results

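In crushed rat sciatic nerve, 80 genes above a minimum mean level were lower in every library with exosomes than in every library without them. There were 6 libraries of each kind, and 4033 of the 30562 genes in the count table reached that level. The 80 genes were chosen by their measured levels. Counts were scaled to CPM, in which every library has the same total, leaving out the 1 gene with the most counts over all libraries, called the largest gene here. A gene was kept when its mean over the 12 libraries was at least 10 CPM and its highest library with exosomes lay under its lowest library without them. Of the 4033 genes at or above that mean, the 80 are 1.98%, and another 102 genes, or 2.53%, had the opposite arrangement. The rule also listed 26 gene IDs to leave out, of which 0 were among the 80.

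The libraries came from 4 groups of 3, all from male SD rats 5 weeks old whose sciatic nerve had been crushed. The group labelled Control had the crush alone by its labels and corresponds to the Model + PBS rats of the study, which received buffer at the same sites. The iPSC-Exos group received 10 μL of exosomes from induced pluripotent stem cells, for which the labels of replicates 2, 3 and 5 read 103, 104 and 105 μg/mL. These steps of 1 may be an error in the labels, since the study names a single concentration for its rats, so they are not taken here as different doses. The LIPUS group received low intensity pulsed ultrasound at 250 mW/cm² and 1 MHz, with a duty cycle of 20%, for 5 minutes a day on 5 days a week over 4 weeks. The iPSC-Exos + LIPUS group received the same ultrasound together with 10 μL of exosomes, at 100 μg/mL by its labels. The study sampled the Control and iPSC-Exos nerves a week after the crush. It does not describe the groups with ultrasound, so the sampling day of those groups is not known here. If the labelled 4 weeks were completed first, their nerves were taken later than the others. In the comparisons with ultrasound, its effect and a difference in sampling day thus cannot be told apart. The exosomes came from human cells, and uninjured nerve was not analysed here.

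Exosomes are small membrane vesicles that cells release and that carry protein and RNA to other cells. After a crush, the axons beyond the injury degenerate, macrophages clear myelin, and Schwann cells, the glia of peripheral nerve, turn to a repair state that guides regrowing axons. RNA of a whole nerve mixes all of these cells with fibroblasts and vessel cells. In such bulk samples, fewer cells of a type and less RNA per cell cannot be told apart. The deposited table gives Ensembl gene IDs alone, and 0 of them could be paired with a gene name here, so the functions of the 80 genes and the cell types that express them were not analysed. For the same reason the labelled tissue, which reads whole brain where the extraction protocol reads sciatic nerve, could not be checked against marker genes. A pair of the genes is given by ID and the others are described by their values.

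The libraries held from 1251715 to 1854545 counts. Without the largest gene the totals ran from 1223522 to 1493953, so that 3 counts corresponded to between 2.01 and 2.45 CPM. Control replicate 9 stood apart from the rest. The largest gene held 32.5% of its counts, against 0.391% to 9.28% in the other 11 libraries, and its counts differed from those of the other Control libraries by a chi-square of 16.2 and 23.3 per degree of freedom, where the other 10 pairs of replicates lay between 5.03 and 8.39. Results that rest on this library are given with and without it.

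The 80 genes were well counted. Their mean level ran from 18.2 to 8477 CPM with a median of 278 CPM, against a median of 74.8 CPM over the 4033 genes. The classes show the same shift. At 1000 CPM or more lay 12 of the 80 genes (15.0%), against 4.19% of the 4033. Between 10 and 20 CPM lay 1 of them (1.25%), against 15.9%. The lowest count of any of these genes in any library was 9, and the median over genes of the lowest count was 225.5. The rule requires groups that do not overlap, and it therefore favours genes with many counts and little spread. The median standard deviation within groups was 0.15 on the log2(CPM + 1) scale for the 80 genes and 0.29 for the 4033.

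The separation was narrow. The lowest library without exosomes exceeded the highest library with them by a ratio of 1.00 to 1.27, with a median of 1.05. The ratio was at least 1.1 in 22 genes and at least 1.2 in 6. The 2 genes just inside the rule had a lowest level of 766 and 891 CPM without exosomes, against a highest level of 765 and 891 CPM with them. The 2 just outside had a lowest level of 466 and 75.0 CPM without, against a highest of 470 and 75.6 CPM with. At the other threshold, the least abundant of the 80 had a mean of 18.2 CPM, and the first gene that failed on its mean alone lay at 8.37 CPM. Exact 95% Poisson intervals of the 2 closest libraries, which cover counting error only, were apart in 4 genes and overlapped in 76. Of these 4 genes, 3 lay at 1000 CPM or more and 1 between 100 and 1000 CPM. For most of the 80 genes the depth thus does not settle whether the closest 2 libraries differ, although the group means lie farther apart.

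**Figure D1:**
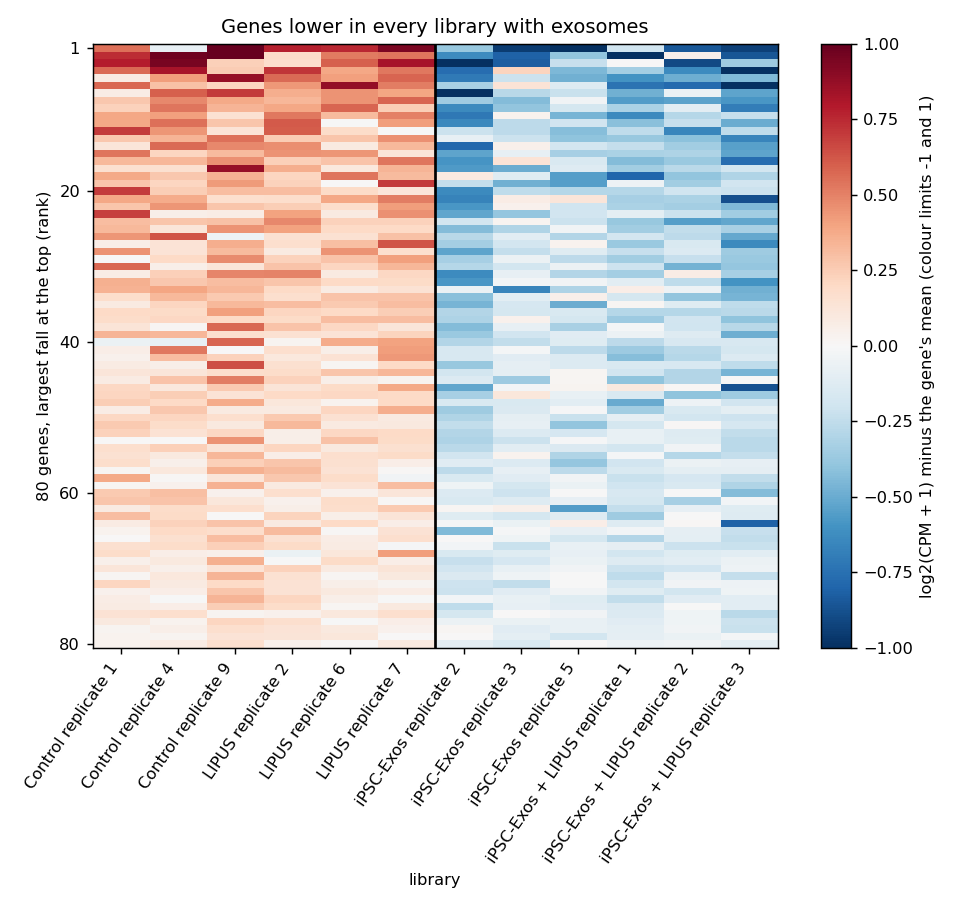
Level of each of the 80 genes (rows, ordered by the ratio of mean CPM without to mean CPM with exosomes) in each of the 12 libraries (columns), as log2(CPM + 1) minus the gene's own mean. The 6 libraries left of the line, without exosomes, are higher than the 6 right of it in every row, as the rule requires, and the colours fade toward the bottom, where the ratio of means reaches 1.10.

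Taken as means, the levels were 1.10 to 2.90 times higher without exosomes, with a median ratio of 1.35. The ratio of means was at least 1.5 in 24 genes and at least 2 in 4. It was largest among the less abundant genes. The 19 genes under 100 CPM had a median ratio of 1.53, the 49 genes between 100 and 1000 CPM one of 1.31, and the 12 genes from 1000 CPM one of 1.34. The rule shapes this order, since a gene with fewer counts spreads more and needs a larger difference to pass. Nothing is read from the order. Most of these falls were modest, and some were found in each of the 3 classes of level.

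ENSRNOG00000024620 had the widest gap between the libraries and was also the most abundant of the 80 genes. Its level was 9602, 9558 and 11067 CPM in Control replicates 1, 4 and 9, and 9670, 9559 and 9909 CPM in LIPUS replicates 2, 6 and 7. With exosomes it was lower, at 6802, 7390 and 7528 CPM in iPSC-Exos replicates 2, 3 and 5 and at 6860, 6837 and 6939 CPM in iPSC-Exos + LIPUS replicates 1, 2 and 3. The 6 libraries without exosomes thus all lay at 9558 CPM or above and the 6 with them all at 7528 CPM or below, and Control replicate 9 was the highest. The group means were 10076 ± 858 CPM (SD, n = 3) for Control, 9713 ± 179 CPM (SD, n = 3) for LIPUS, 7240 ± 386 CPM (SD, n = 3) for iPSC-Exos and 6878 ± 53.2 CPM (SD, n = 3) for iPSC-Exos + LIPUS. The log2 fold change was -0.55 (standard error 0.13) for iPSC-Exos over Control and -0.54 (standard error 0.13) for iPSC-Exos + LIPUS over LIPUS. This gene alone held 14.3% of the summed level of the 80.

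ENSRNOG00000056637 had the next widest gap at a far lower level. It lay at 151, 159 and 184 CPM in Control replicates 1, 4 and 9, and at 149.6, 152 and 173 CPM in LIPUS replicates 2, 6 and 7. With exosomes it lay at 118, 108 and 94.7 CPM in iPSC-Exos replicates 2, 3 and 5, and at 96.0, 94.3 and 79.1 CPM in iPSC-Exos + LIPUS replicates 1, 2 and 3. The 2 groups with exosomes were both below the 2 groups without, and they overlapped each other between 94.7 and 96.0 CPM. Its counts ran from 108 to 242. The log2 fold change was -0.69 (standard error 0.16) for iPSC-Exos over Control and -0.86 (standard error 0.16) for iPSC-Exos + LIPUS over LIPUS. Since the rule chose these genes for this very difference, no test of it is given.

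**Figure D2:**
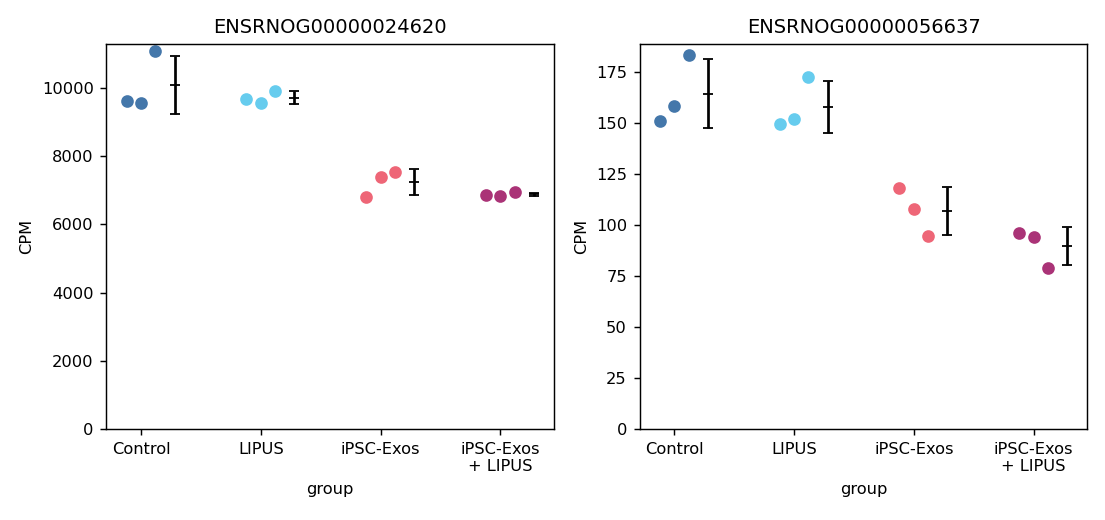
Level in CPM of ENSRNOG00000024620 (left) and ENSRNOG00000056637 (right) by group, with 1 point per library and, beside the points, the mean with its SD (n = 3). The lowest point without exosomes is 9558 CPM on the left and 149.6 CPM on the right, against a highest point with exosomes of 7528 and 118 CPM.

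The gene with the largest ratio of means, which was singled out for that value, was a scarce one. Its counts were 64, 40 and 114 in Control replicates 1, 4 and 9 and 70, 84 and 90 in LIPUS replicates 2, 6 and 7. With exosomes the counts were 31, 22 and 19 in iPSC-Exos replicates 2, 3 and 5, and 37, 25 and 23 in iPSC-Exos + LIPUS replicates 1, 2 and 3. The means differed 2.90-fold, but the closest libraries, Control replicate 4 at 31.1 CPM and iPSC-Exos + LIPUS replicate 1 at 28.7 CPM, were nearly level. In this gene a large ratio of means thus went with a gap of only 1.09-fold between the closest libraries.

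Summed over the 80 genes, the level was 68547 ± 5743 CPM (SD, n = 3) in Control, 67786 ± 1779 CPM (SD, n = 3) in LIPUS, 51308 ± 4104 CPM (SD, n = 3) in iPSC-Exos and 48904 ± 1902 CPM (SD, n = 3) in iPSC-Exos + LIPUS. With the largest gene left out of the totals, these genes made up on average 6.82% of the counts in libraries without exosomes and 5.01% in those with them. Libraries differed within groups as well. Control replicate 9 had the highest sum, 75170 CPM, against 64957 and 65513 CPM in Control replicates 1 and 4, and it was the highest of all 12 libraries in 31 of the 80 genes. iPSC-Exos replicate 2 (46898 CPM) and iPSC-Exos + LIPUS replicate 3 (46725 CPM) had the lowest sums, and 1 of the 2 was the lowest of all libraries in 51 genes. In these 2 libraries the 102 genes with the opposite arrangement had their highest sums, 49911 and 49616 CPM, against 40344 to 42904 CPM in the other 4 libraries with exosomes and 27637 to 28666 CPM in the 6 without.

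Taking each gene relative to its own mean, so that abundant genes weigh no more than others, gave the same order of groups without exosomes above groups with them. The median over the 80 genes was 0.19, 0.20 and 0.28 in Control replicates 1, 4 and 9 and 0.21, 0.18 and 0.21 in LIPUS replicates 2, 6 and 7, on the log2(CPM + 1) scale. With exosomes it was below zero, at -0.29, -0.12 and -0.14 in iPSC-Exos replicates 2, 3 and 5 and -0.21, -0.18 and -0.27 in iPSC-Exos + LIPUS replicates 1, 2 and 3. The ultrasound groups overlapped the group without ultrasound on both sides. The libraries closest to the threshold were iPSC-Exos replicates 5 and 3, which held the highest value with exosomes in 24 and 22 genes, and Control replicate 1 and LIPUS replicate 6, which held the lowest value without them in 17 and 16 genes.

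**Figure D3:**
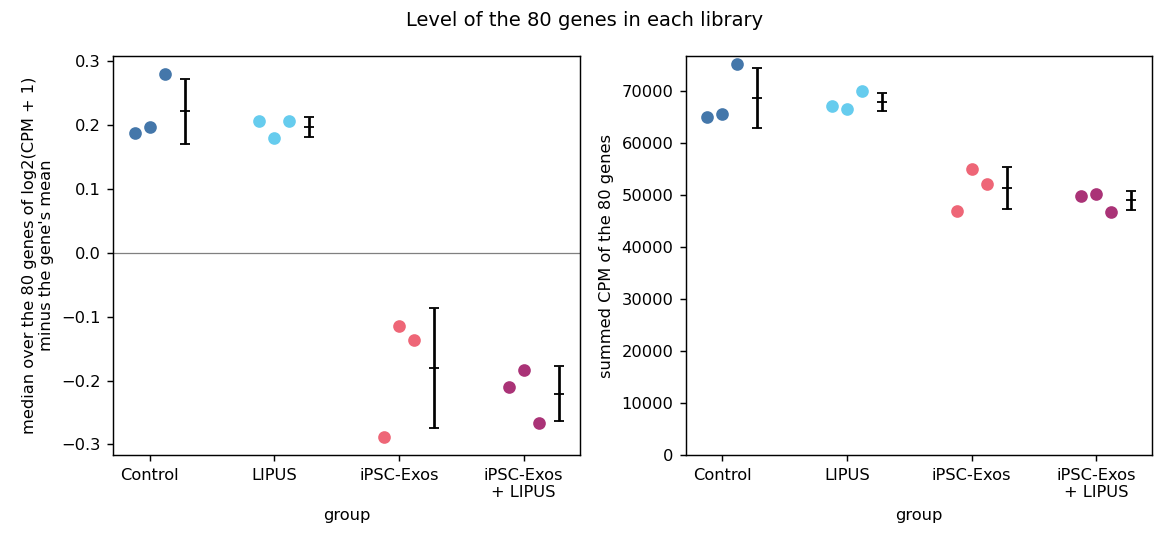
Left, the median over the 80 genes of log2(CPM + 1) minus the gene's mean, and right, their summed CPM, in each library (points) by group, with the mean and its SD (n = 3) beside the points. Control replicate 9 is the highest point in both panels, and iPSC-Exos replicate 2 and iPSC-Exos + LIPUS replicate 3 are the 2 lowest.

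After the group means were taken out, the 80 genes still varied together to a small degree. The mean correlation between pairs of them over the 12 libraries was 0.11 on these deviations, against 0.04 for pairs of the 4033 genes and 0.13 for pairs of the 102 genes with the opposite arrangement. The largest shared pattern of these deviations, however, held 28.6% of their variation in the 80 genes and 31.5% in the 4033. The 80 genes are also more abundant and spread less within groups, so the correlations are not matched for level. All pairs share the same 12 libraries and their depth, and the values are a description.

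The falls can be set side by side in nerves without and with ultrasound, which use different libraries. With edgeR's fit, the median log2 fold change of the 80 genes was -0.48 for iPSC-Exos over Control and -0.48 for iPSC-Exos + LIPUS over LIPUS, against -0.01 and 0.02 over the 4640 genes tested. All 80 passed the fit's filter on low counts. The genes from the lower to the upper quartile lay between -0.67 and -0.38 without ultrasound and between -0.70 and -0.34 with it. A fold change of -0.5 or lower was found in 36 genes without ultrasound, in 38 with it and in 28 in both. Over all libraries with exosomes against all without, the median was -0.49 with a median standard error of 0.11, and it was -0.43 for the same 80 genes without Control replicate 9. That every gene fell in both comparisons follows from the rule.

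The size of the fall in the 2 settings was compared by an interaction term. The rule leaves out genes that fell in only 1 setting, so this comparison too is limited by the choice of genes. The fall was larger with ultrasound in 34 genes and larger without it in 46, with a median difference of 0.03. By edgeR's quasi-likelihood test, the adjusted p was under 0.05 in 0 of the 80 genes and the unadjusted p in 1 (1.25%), where over all 4640 genes 0 (0%) passed after adjustment and 4.22% did before it. Nothing is read from this difference in shares. Without Control replicate 9 the unadjusted p was under 0.05 in 7 of the 80 genes, again with 0 after adjustment. The share over all genes is not given for that fit, so nothing is read from this number either. The direction of the median difference was not stable when single libraries were left out. Without Control replicate 9 it was -0.10, with a negative interaction, a larger fall with ultrasound, in 59 of the 80 genes. It was -0.01 without iPSC-Exos replicate 2, -0.02 without iPSC-Exos + LIPUS replicate 2 and -3.1e-06 without LIPUS replicate 6. With any other library left out it stayed above zero. Over all genes tested the interaction was negative in 47.3% with Control replicate 9 and in 50.5% without it.

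**Figure D4:**
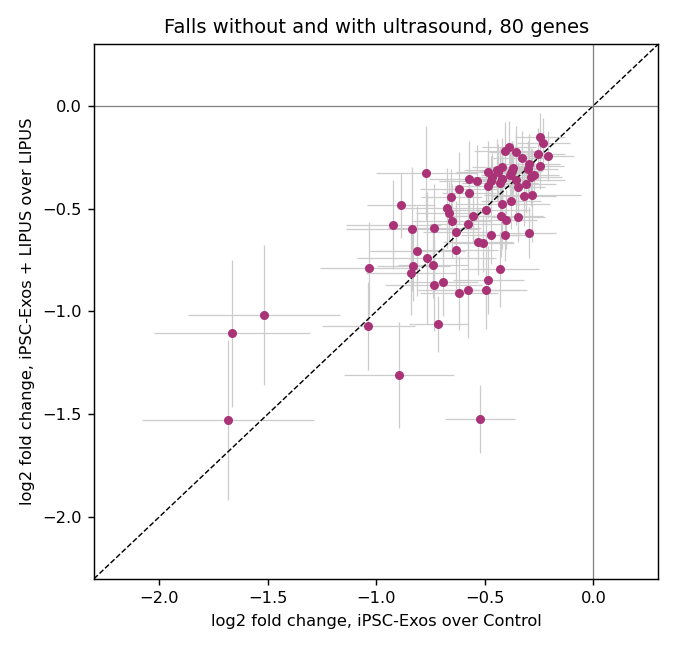
Log2 fold change of each of the 80 genes for iPSC-Exos over Control (horizontal) and for iPSC-Exos + LIPUS over LIPUS (vertical), with standard errors and a dashed line of equal change. Both medians are -0.48, and the point farthest below the line is the gene at -0.52 without and -1.52 with ultrasound.

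The rule did not compare nerves with and without ultrasound, but it used the same libraries, and by keeping the libraries on each side of the exosome difference apart from those on the other it selects against genes that spread or change with ultrasound within a side. The counts below are therefore limited by the choice of genes. Without exosomes, LIPUS over Control, edgeR's test gave an adjusted p under 0.05 for 0 of the 80 genes (background 0%), and an unadjusted p under 0.05 for 0 against 2.44% of all genes tested. With exosomes, iPSC-Exos + LIPUS over iPSC-Exos, 0 of the 80 passed after adjustment (background 0%), and 2, or 2.50%, had an unadjusted p under 0.05 against 5.52% of all genes. For the average of both, 0 passed (background 0%) and 1, or 1.25%, had an unadjusted p under 0.05 against 3.94%. Since the choice of genes shapes these shares, nothing is read from their being below those of all genes. Without Control replicate 9 the numbers before adjustment were 2 without exosomes, 6 with exosomes and 3 for the average, again with 0 after it. The shares over all genes are not given for that fit, so nothing is read from these numbers. The median standard error of a log2 fold change was 0.15 for the 80 genes in both settings, against 0.26 over all genes, so smaller changes with ultrasound could not be detected here, and a p over the threshold does not show that the levels were alike.

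The median log2 fold change of the 80 genes with ultrasound was -0.04 without exosomes, -0.04 with exosomes and -0.05 on average. Over all genes tested it was -0.02, -0.01 and -0.01. The average change with ultrasound was smaller than the change with exosomes in 80 of 80 genes. This follows from the rule, which sets both groups without exosomes above both groups with them, so nothing is read from it. LIPUS was below Control in 58 of the 80 genes (72.5%, against 54.7% of all genes), but in 48 (60.0%, against 50.6% of the 4033 genes) on the CPM scale that the rule uses. Without Control replicate 9 it was below in 23 of the 80, against 49.98% of all genes, and the median was 0.08. With exosomes, the group with ultrasound was lower in 49 genes (61.3%, against 52.0% of all genes), and this number was the same on the CPM scale. In 32 genes both comparisons were negative and in 5 both were positive.

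**Figure D5:**
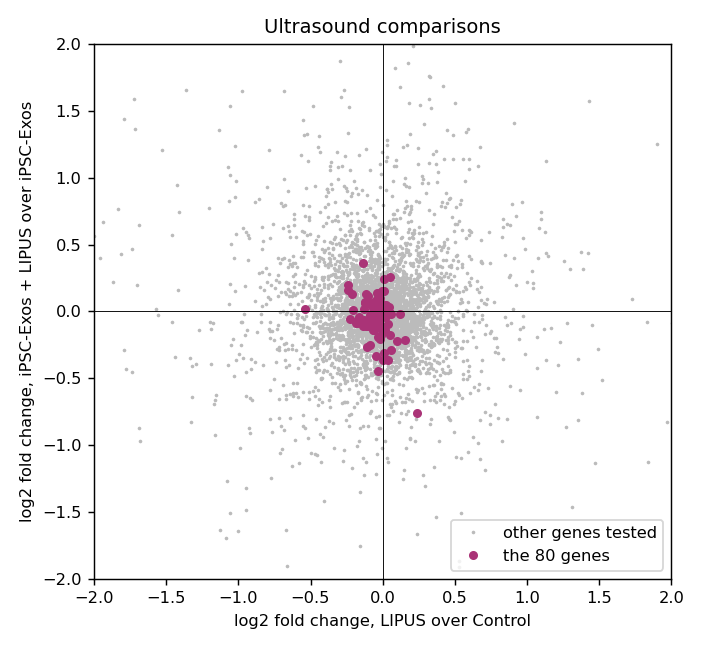
Log2 fold change with ultrasound, for LIPUS over Control (horizontal) and for iPSC-Exos + LIPUS over iPSC-Exos (vertical), of the 80 genes and of the other genes tested; 50 genes lie outside the axis limits of -2 and 2. The 80 genes lie close to the crossing of the axes, between -0.54 and 0.24 horizontally, with 1 gene apart at 0.24 and -0.76.

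That gene, singled out after its values were seen, had the smallest p of the 80 in both the ultrasound comparison with exosomes and the interaction. It lay at 414, 341 and 322 CPM in Control replicates 1, 4 and 9, and at 375, 513 and 396 CPM in LIPUS replicates 2, 6 and 7. With exosomes alone it lay at 222, 305 and 254 CPM in replicates 2, 3 and 5, and with exosomes and ultrasound at 167, 161 and 131 CPM in replicates 1, 2 and 3. The group with both treatments was thus the lowest. That it lay below Control and LIPUS follows from the rule, which does not require it to be apart from iPSC-Exos. These groups with exosomes did not overlap in 5 of the 80 genes (6.25%), against 13.2% of all genes at or above the minimum mean. Nothing is read from this difference, since the rule shapes it. LIPUS and Control overlapped in this gene. Its log2 fold change with ultrasound was -0.76 (standard error 0.16, adjusted p = 0.129 in edgeR's test) in nerves with exosomes and 0.24 (standard error 0.16, adjusted p = 0.999 in edgeR's test) in nerves without. The interaction was -1.0 (standard error 0.23, adjusted p = 0.610 in edgeR's test). None of these passed the adjustment over all genes.

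For ENSRNOG00000024620, the change with ultrasound was -0.09 (standard error 0.13, adjusted p = 0.999 in edgeR's test) without exosomes and -0.07 (standard error 0.13, adjusted p = 0.990 in edgeR's test) with them. For ENSRNOG00000056637 it was -0.09 (standard error 0.16) and -0.25 (standard error 0.17), with the same adjusted p-values of 0.999 and 0.990 in edgeR's test.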

How the data were processed

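RNA of crushed sciatic nerve was sequenced in 12 libraries. Per the labels and the study's methods, the authors used Trimmomatic (version 0.38) to trim the paired-end reads and HISAT2 (version 2.0.5) for alignment to Rnor_6.0, and deposited raw counts per Ensembl gene ID, which are whole numbers with no normalization. SAMtools and StringTie are also named in the submitters' processing notes. The counting tool, the annotation release and the use of strand are not given in the sources used here. Of 47357 genes in the GRCr8 reference table, 0 matched an ID, so the gene lists of markers and pathways could not be used, and sequences are not given.

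All columns matched a library by name. The genes were found from CPM as described. Genes were filtered with filterByExpr, scaled with TMM factors (0.626 for Control replicate 9 and 0.973 to 1.09 for the others) and tested with edgeR (version 4.0.16, R version 4.3.3) by its quasi-likelihood test with 1 mean per group over all 12 libraries, and Benjamini-Hochberg adjustment over 4640 genes. Standard errors were obtained from the log2 fold change and the F value of its test. DESeq2 (version 1.42.0), RLE and upper quartile factors, other filters, the 2 groups alone, the replicate number as a block and each library left out were alternatives. The script was tested on simulated data. The genes and comparisons were chosen with earlier results of these data known. The rule for genes to name gave, with no names at hand, the 2 IDs with the widest gap; other genes are described without an ID. Labels give a number for each library but do not say that each is 1 rat, so p-values measure the spread between libraries, which may in part be technical.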

Additional observations from a re-analysis of the deposited data

How the results depend on the processing

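The number of genes that met the rule was 80. It was 105 with TMM factors (75 shared with the 80), 106 with RLE factors (76 shared), 83 and 79 with a minimum mean of 5 and 20 CPM, and 12 when the largest gene was kept in the totals (10 shared), where the scale of Control replicate 9 changes most. With 1 library left out it ranged from 84 to 124, highest without iPSC-Exos replicate 5 (124) and without Control replicate 9 (116), since fewer libraries then have to be apart. Each of these 17 alternatives chooses its genes anew by the same difference, which holds up their median log2 fold change, with minus without exosomes (-0.52 to -0.46). For the same 80 genes without Control replicate 9 it was -0.43, against -0.49 with it.

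Among the 80 genes, the number with an adjusted p under 0.05 with ultrasound in nerves with exosomes was 0 with edgeR, 1 with DESeq2 and 1 without a filter on low counts, in both cases the gene that had the smallest p. Its adjusted p ranged from 0.00296 to 0.565 over 19 alternatives. For the interaction the number was 0, and 1 without a filter, again that gene. The cause was not tested. The number was 0 in every other alternative run for the 4 ultrasound tests, including each library left out. Without Control replicate 9, the median change of the 80 genes moved from -0.04 to 0.08 for LIPUS over Control, from -0.05 to 0.02 for the average and from 0.03 to -0.10 for the interaction.

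iPSC-Exos and iPSC-Exos + LIPUS share the numbers 2 and 3 in the labels. With the replicate block and only these 2 groups, 0 of the 80 genes passed, as without it. Deviations from the group means of the 2 same-numbered pairs correlated over genes by -0.07 on average, against 0.02 for the other 7 pairs, which gives no sign that these libraries are paired. A floor of 3 counts per library lies at 2.01 to 2.45 CPM.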
